A study of Mus musculus with 4 samples.

Results

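The triglyceride synthesis genes of the liver were examined in aP2-SREBP-1c mice. The members were 9 named genes, namely Gpam, Agpat2, Agpat3, Lpin1, Lpin2, Dgat1, Dgat2, Mogat1 and Pnpla3, out of 19938 genes with a probe set of their own on the array. Each of the 9 genes was represented by 1 probe set that carries only that gene's symbol, so that no choice between probe sets was needed. All 4 samples belong to 1 group. They are livers of male transgenic mice on the C57Bl6 background, aged 24 weeks and kept on regular chow, that carry the HA-tagged N-terminal part of human SREBP-1c under the aP2 promoter. This promoter drives the transgene in adipocytes and not in hepatocytes, and the mice lack normal fat tissue and develop a severe fatty liver. RNA (150 ng per mouse) was hybridized to 1 array per mouse, and the log2 expression values are those deposited by the authors after RMA, which corrects the background, normalizes the arrays by quantiles and summarizes the probes of a gene. C57Bl6 and alb-SREBP-1c livers were not analysed here, so that the data give levels and the spread between mice within 1 condition, and no difference between phenotypes.

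Hepatocytes store surplus fatty acids as triglycerides. In the glycerol phosphate pathway, a first fatty acid is joined to glycerol-3-phosphate by glycerol-3-phosphate acyltransferases and a second one by acylglycerolphosphate acyltransferases. Lipins then remove the phosphate to give diacylglycerol, and diacylglycerol acyltransferases add the last fatty acid. A side entrance starts from monoacylglycerol, which is acylated by monoacylglycerol acyltransferases. Pnpla3 encodes a lipid droplet protein that acts on the acyl chains of stored triglycerides and is a known target of SREBP-1c in the liver.

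As a measure of background, the signal of 1212 probe sets of odorant and pheromone receptor genes, which are not liver genes, was used. Their 95th percentile on an array was taken as its limit, and a gene counted as above background if its value was over the limit in every mouse. This limit was 5.52 on the log2 scale in mouse 1 and 5.33 to 5.35 in mice 2 to 4. It was exceeded by 61.5% of all genes and by 8 of the 9 members. The array of mouse 1 stood apart. Its values were compressed, so that in the highest of 10 classes of mean expression, which holds Gpam, Agpat2, Agpat3, Lpin2 and Dgat2, the median value of mouse 1 relative to the remaining mice was -0.23 in the deposited values and -0.047 after quantile normalization of the 4 arrays. For many results that rest on mouse 1, values after quantile normalization or without this mouse are therefore given as well. Where they are not given, a range holds for the deposited values only. Of 5 measured hepatocyte markers, all were above background, and Alb, which encodes albumin, was measured at 14.29, 14.33, 14.37 and 14.31 in mice 1 to 4. The hepatocyte list was not even over the mice, since Hnf4a, a liver transcription factor gene, reached 10.19, 10.60, 10.62 and 10.48, with mouse 1 the lowest (1.34-fold range). In whole liver, fewer cells of a type and less RNA per cell cannot be told apart. Levels of different genes come from different probe sets and are not ranked against each other.

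The stretches of 250 bases before the transcription start are shown for 3 members from the RefSeq promoter sequences of build GRCm38.p6. In the deposited values the measured range between mice was narrowest for Agpat2, which did not hold after quantile normalization, and widest for Mogat1, for which mouse 1 was under its background limit. Gpam encodes the first enzyme of the pathway. Capitals mark letters of 5 short motifs that were searched on both strands. The GC box was searched as GGGCGG and the CCAAT box by the letters of its name. The TATA box was searched as TATAAA, the E-box as CACGTG and the sterol regulatory element, which is bound by SREBPs, as TCACNCCAC. The windows lie at chr2:26604418-26604667 on the minus strand for Agpat2, chr1:78510810-78511059 on the plus strand for Mogat1 and chr19:55127239-55127488 on the minus strand for the first of 2 listed starts of Gpam.
Agpat2: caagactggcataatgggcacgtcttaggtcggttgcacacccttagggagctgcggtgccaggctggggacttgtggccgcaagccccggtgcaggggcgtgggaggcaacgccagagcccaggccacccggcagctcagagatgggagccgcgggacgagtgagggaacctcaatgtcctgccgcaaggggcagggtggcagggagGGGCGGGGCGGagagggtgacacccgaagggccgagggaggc
Mogat1: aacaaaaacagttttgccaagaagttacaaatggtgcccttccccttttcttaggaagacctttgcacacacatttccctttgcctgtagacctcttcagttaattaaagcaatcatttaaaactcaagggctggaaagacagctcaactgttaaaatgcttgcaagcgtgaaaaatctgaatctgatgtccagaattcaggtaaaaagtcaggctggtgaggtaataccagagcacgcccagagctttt
Gpam: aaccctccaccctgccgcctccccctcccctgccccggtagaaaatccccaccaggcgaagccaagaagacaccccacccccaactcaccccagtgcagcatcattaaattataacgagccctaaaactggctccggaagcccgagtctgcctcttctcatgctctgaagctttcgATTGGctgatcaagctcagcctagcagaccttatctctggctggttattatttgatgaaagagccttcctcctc

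The Agpat2 window was rich in G and C (69.2%) and held 2 GC boxes, which begin 42 and 37 bases before the start and overlap by 1 base. The Mogat1 window had a share of G and C of 41.2% and held none of the 5 motifs, and that of Gpam (54.8%) held 1 CCAAT box on the opposite strand. Of the 9 members, 7 had an entry in this table, with 10 windows in all, and Dgat1 and Dgat2 had none. A GC box was found in 5 of these 10 windows and in 32.7% of all 32851 windows, and a CCAAT box in 3 of 10 and in 33.8% of all. The E-box letters occurred in 1 of 10 windows, that of the first listed start of Lpin2, against 6.02% of all windows. The sterol regulatory element letters (1.05% of all windows) and the TATA box letters (12.4%) were not found in the 10 windows. The arrays measure no binding or methylation of these stretches, and a match of letters is a description only.

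The first acylation, catalysed in mitochondria by the product of Gpam, was represented on the log2 scale by 10.57, 11.00, 11.07 and 10.85 in the 4 mice, in the order of their labels. The value of mouse 1 was the lowest and those of mice 2 and 3 lay close together at the top. The mean level was 10.87 ± 0.22 (SD, n = 4 mice), and the ratio of the highest to the lowest mouse, its range, was 1.41-fold. A one-group limma fit, in which each gene's variance is pulled towards a value typical of the array, gave a 95% confidence interval of the mean from 10.67 to 11.07. Without mouse 1, the range of Gpam was 1.16-fold, and after quantile normalization of all 4 arrays it was 1.23-fold.

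For the second acylation, 2 members were measured. Agpat2, whose loss causes a congenital lipodystrophy with fatty liver in humans, reached 11.50, 11.58, 11.53 and 11.53 in mice 1 to 4. The 4 mice were thus almost equal, at 11.53 ± 0.03 (SD, n = 4) with a 1.06-fold range, and 1.14% of all genes above background had a smaller SD. The limma interval of Agpat2, 11.38 to 11.69, is wider than this spread because the fit raises very small variances. Agpat3, which encodes a further acylglycerolphosphate acyltransferase, reached 10.40, 10.79, 10.77 and 10.60. Here mice 2 and 3 were higher than mice 1 and 4, with a mean of 10.64 ± 0.18 (SD, n = 4), a 95% confidence interval of 10.45 to 10.83 and a 1.31-fold range. Quantile normalization left a 1.18-fold range for Agpat3 and turned mouse 1 from the lowest to the highest mouse for Agpat2 (11.64, 11.54, 11.46 and 11.51), with a 1.13-fold range. The order of the mice for Agpat2 therefore depended on the scaling. Without mouse 1, the range of Agpat3 was 1.15-fold.

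The lipins dephosphorylate phosphatidic acid and also act as transcriptional coactivators. Lpin1, the gene mutated in the fatty liver dystrophy (fld) mouse, was measured at 7.92, 8.30, 8.23 and 8.25 in mice 1 to 4, a mean of 8.18 ± 0.17 (SD, n = 4; 95% confidence interval 7.99 to 8.36). Lpin2, the second lipin of hepatocytes, was measured at 9.04, 9.51, 9.42 and 9.51, a mean of 9.37 ± 0.22 (SD, n = 4; 95% confidence interval 9.17 to 9.57). In the deposited values both lipin genes had the same shape over the mice, with mouse 1 below and the other mice within a narrow band. Without mouse 1, the range shrank from 1.30-fold to 1.05-fold for Lpin1 and from 1.39-fold to 1.07-fold for Lpin2. After quantile normalization mouse 1 was still the lowest, with ranges of 1.19-fold for Lpin1 and 1.22-fold for Lpin2. The band of mice 2 to 4 was then wider, at 1.10-fold for Lpin1 and 1.11-fold for Lpin2.

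The last step is catalysed by 2 unrelated enzymes. Dgat1, which encodes the acyltransferase that also esterifies fatty acids taken up from outside, was measured at 6.51, 6.86, 6.98 and 6.67 in mice 1 to 4. Mouse 1 was again the lowest and mouse 4 the next, at a mean of 6.75 ± 0.21 (SD, n = 4), a 95% confidence interval of 6.56 to 6.95 and a 1.38-fold range. Of the 8 members above background, Dgat1 had the widest range after quantile normalization (1.34-fold) and without mouse 1 (1.24-fold), whereas Gpam and Lpin2 were wider in the deposited values. Dgat2, which encodes the enzyme tied to newly made fatty acids in the liver, was measured at 11.04, 11.15, 11.18 and 11.11. The mice were nearly equal, at 11.12 ± 0.06 (SD, n = 4), a 95% confidence interval of 10.96 to 11.28 and a 1.11-fold range. For Dgat2, mouse 1 was the lowest in the deposited values but the highest after quantile normalization, when the range was 1.05-fold. In the same 4 livers, Dgat1 thus had an SD of 0.21 and Dgat2 an SD of 0.062, and this difference in spread was not tested.

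Mogat1, which encodes a monoacylglycerol acyltransferase that is low in lean mouse liver and known to be raised in fatty liver of mice, was the only member that fell below the background limit in a mouse. It was measured at 5.02, 5.95, 6.01 and 5.59 in mice 1 to 4. Mice 2, 3 and 4 lay above their background limits, whereas mouse 1 lay 0.50 below its own limit, so that Mogat1 did not count as above background. The mean was 5.64 ± 0.45 (SD, n = 4), no limma interval was computed for it, and the measured values span a 1.99-fold range. Since mouse 1 was not above background, the highest mouse was at least 1.40-fold higher when the background limit of mouse 1 (5.52) is put in place of its value. This bound does not exceed the 1.41-fold range of Gpam. Quantile normalization widened the measured range to 2.13-fold, while the range without mouse 1 was 1.34-fold. Pnpla3 was measured at 6.98, 7.08, 7.19 and 7.14, a mean of 7.10 ± 0.09 (SD, n = 4; 95% confidence interval 6.94 to 7.26). All 4 mice lay within a 1.16-fold range for Pnpla3, and within 1.08-fold after quantile normalization.

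**Figure D1:**
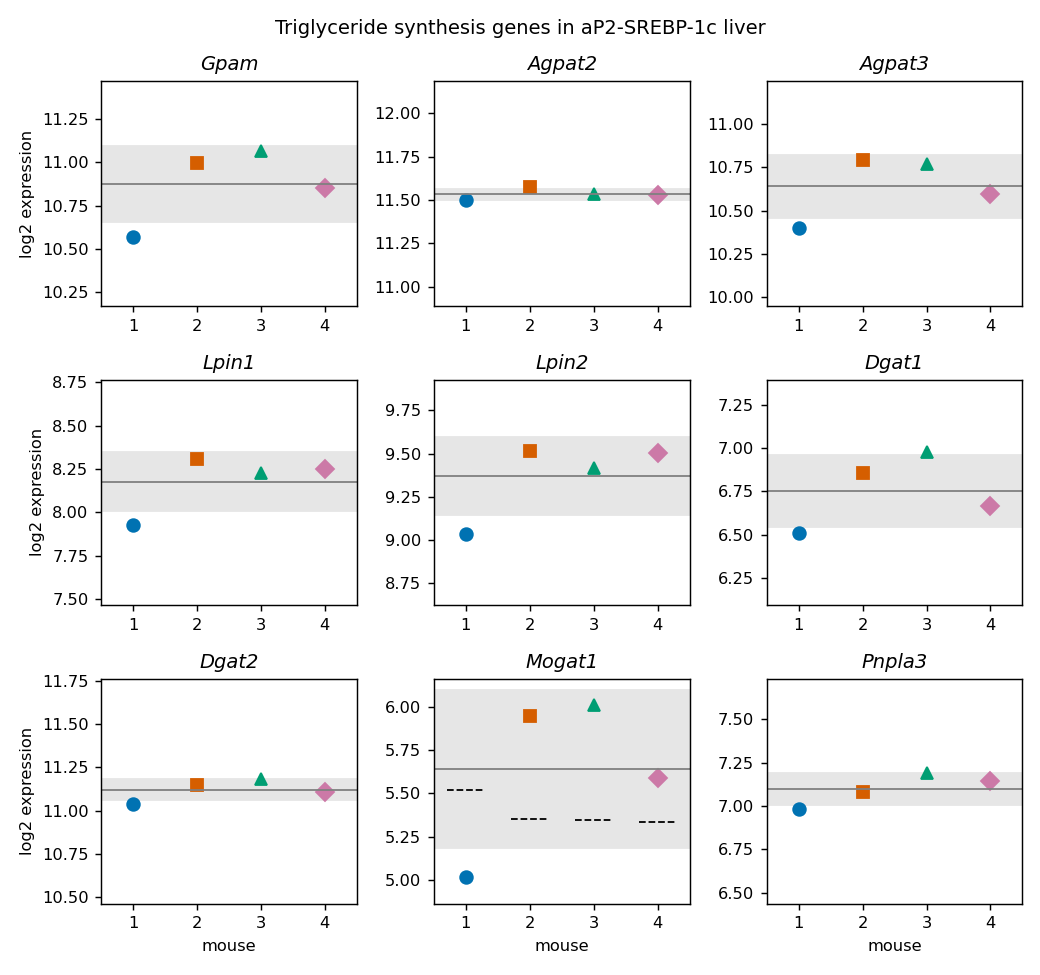
Log2 expression of the 9 members by mouse, with 1 panel per gene, the mouse on the x axis and equally long y axes. Grey lines and bands give the mean ± SD, and dashed lines in the Mogat1 panel give the background limit of each array. Mouse 1 was the lowest mouse in all 9 panels, and Mogat1 in mouse 1 lay under its limit.

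A range over 1.5-fold was found for 0 of the 8 members above background and for 12.9% of the 12265 genes above background. A range of more than 0.32 on the log2 scale, a smaller limit added after the data had been seen, was found for 5 of the 8 members (Gpam, Agpat3, Lpin1, Lpin2 and Dgat1), against 54.2% of all genes. After quantile normalization only Dgat1 did so, against 47.0% of all genes. Without mouse 1, when Mogat1 also counts as above background, 1 of 9 members, Mogat1, exceeded 0.32 (25.3% of all genes) and 0 exceeded 1.5-fold (2.71% of all genes). The median SD of the 8 members was 0.18, beside 0.15 for all genes above background. It was 0.11 after quantile normalization, beside 0.14 for all genes, and 0.054 without mouse 1, beside 0.11. In the deposited values Gpam, Agpat3, Lpin1, Lpin2 and Dgat1 had SDs of 0.17 to 0.22, and Agpat2, Dgat2 and Pnpla3 had SDs of 0.032 to 0.090. After quantile normalization the same 5 genes had SDs of 0.10 to 0.19, and Agpat2, Dgat2 and Pnpla3 had SDs of 0.029 to 0.074. For the lipins the separation rested on mouse 1. Without this mouse, the SDs of Lpin1 (0.040) and Lpin2 (0.052) were below that of Pnpla3 (0.055). Those of Gpam (0.11), Agpat3 (0.11) and Dgat1 (0.16) were still above it.

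**Figure D2:**
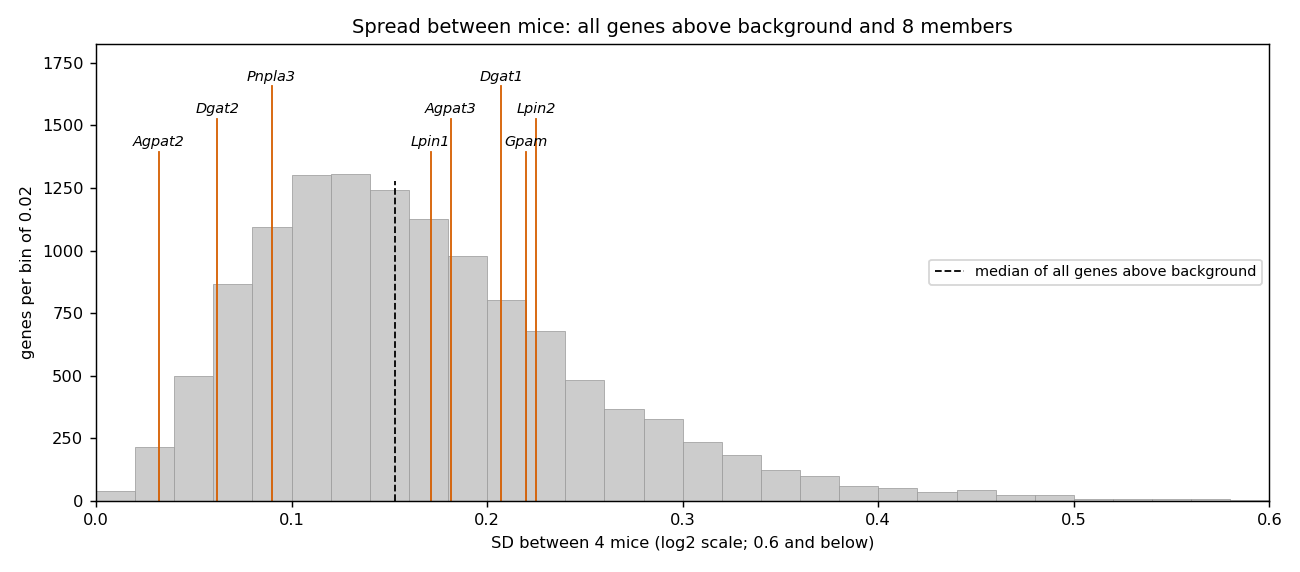
Distribution of the SD between the 4 mice (x axis, log2 scale) over all genes above background (y axis, genes per bin), shown up to an SD of 0.6, with the 8 members above background as vertical lines. Agpat2, Dgat2 and Pnpla3 lie left of the dashed median of all genes (0.15), and the other 5 members right of it.

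Mouse 1 had the lowest value of the 4 mice for 9 of 9 members. Over all genes above background the share was 46.1%, and it was 78.1% among those with a mean over 10. After quantile normalization mouse 1 was the lowest for 7 of the 9 members, all except Agpat2 and Dgat2. The share was then 36.1% of all genes above background and 45.5% of those with a mean over 10. For 6 members, namely Gpam, Agpat2, Agpat3, Dgat1, Dgat2 and Mogat1, mouse 4 was the second lowest, an order held by 22.6% of all genes. After quantile normalization the order held for Gpam, Agpat3, Dgat1 and Mogat1 and for 18.2% of all genes. Mouse 1 minus the mean of mice 2 to 4 was -0.40 for Gpam, -0.44 for Lpin2 and -0.33 for Dgat1 in the deposited values. It was -0.23, -0.23 and -0.30 after quantile normalization. Of these 3 genes, Dgat1 was the least altered by the scaling. Genes of its class of mean expression were also little altered, with medians of -0.070 in the deposited values and -0.032 after quantile normalization. In the class of Gpam and Lpin2 these were -0.23 and -0.047.

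**Figure D3:**
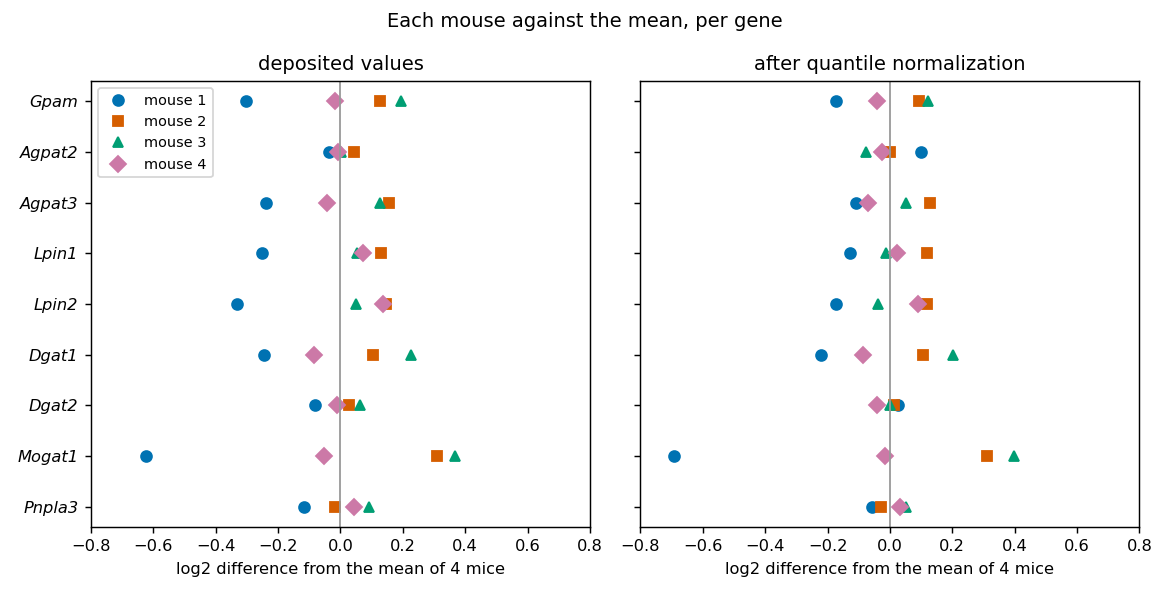
Difference of each mouse from the mean of the 4 mice (x axis, log2 scale) for each member (y axis), with the deposited values on the left and after quantile normalization on the right. Mouse 1 lies at the left end for 9 of 9 genes in the deposited values and for 7 of 9 after quantile normalization.

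Markers of other cell types moved with the mouse as well. Of 5 measured pancreatic acinar markers, all were above background, and the carboxypeptidase gene Cpa1 was measured at 9.02, 6.31, 6.69 and 8.49 in mice 1 to 4. The summed linear level of the acinar list was 2214, 416, 548 and 1708. Mice 1 and 4, with the most acinar RNA, had the lowest values of Gpam, Agpat3, Dgat1 and Mogat1 with both scalings. For Agpat2 and Dgat2 this held only in the deposited values. Mouse 1 lowest and mouse 4 next was the order of 22.6% of all genes, and of 18.2% after quantile normalization. For Lpin1 (8.25), Lpin2 (9.51) and Pnpla3 (7.14), mouse 4 was instead the second highest in the deposited values. Of 6 stellate cell markers, all were above background, and their summed linear level was 2580, 4430, 4538 and 3476. The decorin gene Dcn was measured at 10.74, 11.58, 11.63 and 11.25. In the deposited values it had the same order of mice as Gpam, Dgat1, Dgat2 and Mogat1. Reln and Lrat shared this order, whereas Col1a1 and Col3a1 were highest in mouse 2. The order was not particular to stellate markers. Alb, Hnf4a, Adgre1 and Fabp2 had it too, whereas Cpa1, Marco and Clec4f did not. The share of all genes with this full order was not counted. Des went the other way and was highest in mouse 1 (6.07, 6.02, 5.97 and 5.59). Mouse 1 was the lowest for 5 of the 6 stellate markers in the deposited values and for 3 after quantile normalization. Of 6 measured adipocyte markers, 3 were above background, and the defining marker Adipoq as well as Lep and Adig were not. The summed linear level of the adipocyte list was 11576, 16103, 16379 and 13207, and it followed Car3, which hepatocytes also express. Plin1, a lipid droplet gene, and Retn were instead highest in mouse 1 (Plin1 6.32, 5.90, 5.36 and 5.49). All 5 macrophage markers were above background, and they did not share an order of mice. Adgre1 was lowest in mouse 1 (6.78, 7.00, 7.12 and 6.87), whereas the Kupffer cell genes Marco (7.06, 6.31, 6.14 and 6.63) and Clec4f (8.73, 8.44, 8.36 and 8.68) were highest there, and the summed linear level was 1087, 1036, 981 and 1084. Of 6 enterocyte markers, Fabp2 (10.28, 10.53, 10.56 and 10.40), Apoa4 and Lct were above background, while Sis, Vil1 and Rbp2 were not. The summed linear level of this list was 5316, 8831, 8507 and 6415, and hepatocytes also express Fabp2 and Apoa4. Of 5 muscle markers, 3 were above background, and Ckm was measured at 6.02, 5.89, 6.03 and 5.84, with a summed linear level of the list of 271 to 311. The part of these cell types in the values of the members was not tested.

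Among 1584 genes above background with more than a 1.5-fold range, the 5 genes whose measured values ran closest to those of Mogat1 over the 4 mice were listed. Likeness was measured as the root mean square difference of the log2 values after centring each gene on its mean. This order rests on the value of Mogat1 in mouse 1, which was under its background limit and gives only a bound, and wide ranges were fixed by the choice of candidates. The list is therefore a description with no ranking. It holds Mpc1, which encodes a subunit of the mitochondrial pyruvate carrier, at 9.87, 10.79, 10.85 and 10.42 in mice 1 to 4. It also holds Sirpa, an inhibitory receptor gene of myeloid cells, and Slc31a2, which encodes a copper transporter family protein. Raet1d, a ligand gene of a natural killer cell receptor with close paralogs that may share probes, and Lrat, a retinol esterification gene used here as a stellate cell marker, complete it. Over mice 2 to 4 alone, where Mogat1 was above its limits, 3 candidate genes were closer to Mogat1 than Mpc1, and 51 were closer than Lrat.

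**Figure D4:**
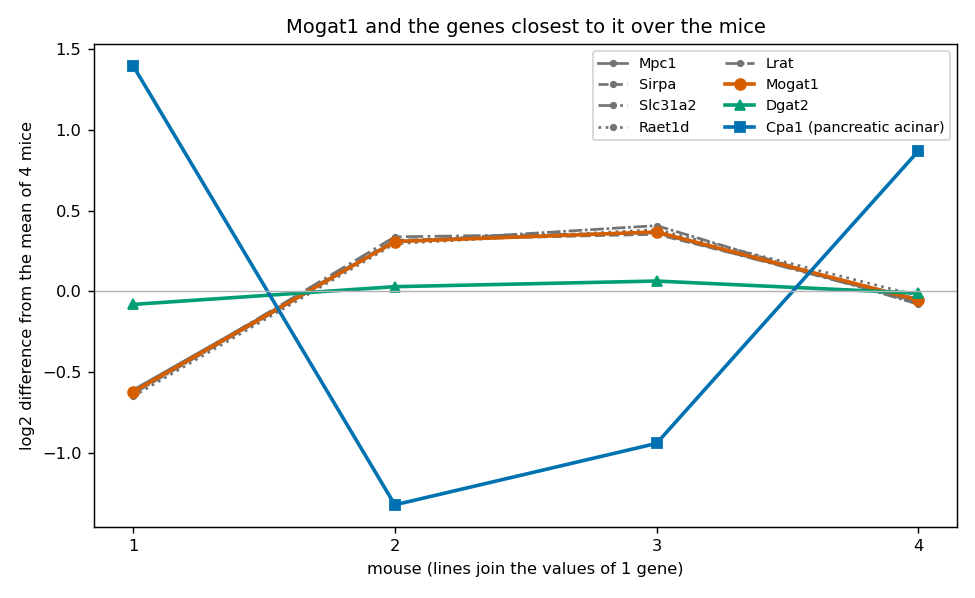
Difference from the mean of the 4 mice (y axis, log2 scale) in each mouse (x axis) for Mogat1, the 5 genes with the closest measured values, Dgat2 and the pancreatic acinar gene Cpa1. The lines join the values of a gene and imply no order of the mice. Mogat1 in mouse 1 is under its background limit, so that its point there is only a measured value. The 5 listed genes were chosen to run close to Mogat1, Dgat2 spans 0.14 from the lowest to the highest mouse, and Cpa1 is highest in mouse 1, where Mogat1 is lowest.

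Other genes of glycerolipid synthesis were taken from a list of 17, of which 14 were measured by a probe set of their own. Gk, Acsl1 and Acsl3 had no such probe set and were not analysed here. Of the 14 genes, 12 were above background. Gpat2, which encodes a testis-enriched acyltransferase, and Agpat4 were not. Only Lclat1, which encodes a lysophospholipid acyltransferase of the endoplasmic reticulum, differed by more than 1.5-fold between mice (1 of 12, beside 12.9% of all genes). It was measured at 9.02, 9.61, 9.68 and 9.35, a 1.58-fold range that was 1.26-fold without mouse 1 and 1.34-fold after quantile normalization. Gpd1, which makes glycerol-3-phosphate and so feeds Gpam, was measured at 10.86, 11.41, 11.34 and 11.02. Its mean was 11.16 ± 0.26 (SD, n = 4), with a 1.46-fold range, mouse 1 the lowest and mouse 4 the next. The related Gpd1l was at 7.01 ± 0.22 (SD, n = 4), also with a 1.46-fold range. After quantile normalization the range was 1.31-fold for Gpd1 and 1.41-fold for Gpd1l. Without mouse 1 it was 1.30-fold for Gpd1 and 1.24-fold for Gpd1l. The smallest spreads were those of Mogat2 (6.03 ± 0.05, SD, n = 4), the intestinal relative of Mogat1, and of Gpat3 (6.54 ± 0.08, SD, n = 4), an acyltransferase gene prominent in adipocytes. The median SD of the 12 genes was 0.13 in the deposited values, 0.15 after quantile normalization and 0.13 without mouse 1. Mouse 1 was the lowest for 7 of them with both scalings.

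Phosphatidic acid and diacylglycerol can also leave triglyceride synthesis towards phospholipids. Of 18 genes of this branch, all were measured and 15 were above background. Their median SD was 0.13, 0.11 after quantile normalization and 0.092 without mouse 1. Only Selenoi, which encodes an ethanolamine phosphotransferase, differed by more than 1.5-fold between mice (1 of 15, beside 12.9% of all genes). It was measured at 9.24, 9.71, 9.89 and 9.67. This 1.58-fold range was 1.17-fold without mouse 1 and 1.33-fold after quantile normalization. The next widest ranges were those of Cept1 (8.30 ± 0.24, SD, n = 4) and Chpt1 (11.41 ± 0.25, SD, n = 4), which encode enzymes that consume diacylglycerol for phosphatidylcholine and, in the case of Cept1, phosphatidylethanolamine. Etnk1, an ethanolamine kinase gene (8.53 ± 0.05, SD, n = 4), and Dgkz, a diacylglycerol kinase gene (6.74 ± 0.06, SD, n = 4), varied least. Mouse 1 was the lowest for 8 of the 15 genes, beside 8 of 8 members above background and 46.1% of all genes. After quantile normalization this held for 6 of the 15 genes, 6 of the 8 members and 36.1% of all genes.

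**Figure D5:**
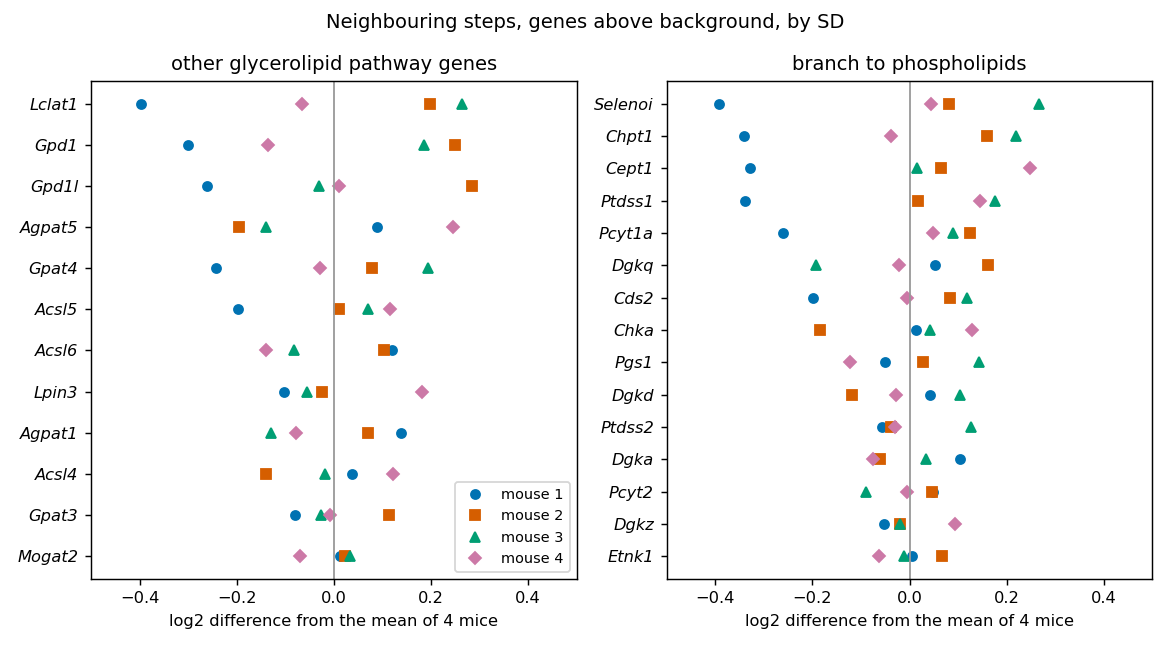
Difference of each mouse from the mean of the 4 mice (x axis, log2 scale) for 12 other genes of glycerolipid synthesis (left) and 15 genes of the branch to phospholipids (right), ordered by SD. Mouse 1 lies at the left end for 7 and 8 of these genes, among them Lclat1 and Selenoi, the only genes with more than 1.5-fold between mice.

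Beside the members, 2 neighbouring processes were described in the same way. All 12 genes of a list of de novo lipogenesis enzymes and controls were above background. A range of more than 1.5-fold was seen in 0 of 12, beside 12.9% of all genes. Their median SD was 0.099 in the deposited values, 0.14 after quantile normalization and 0.084 without mouse 1. Mouse 1 was the lowest for 6 of these 12 genes, and for 5 after quantile normalization. Of 16 genes of lipid droplets and lipolysis, all were above background. Their median SD was 0.19, 0.15 after quantile normalization and 0.095 without mouse 1. More than a 1.5-fold range was seen in 5 of 16 (12.9% of all genes), in 2 of 16 after quantile normalization (10.6%) and in 0 of 16 without mouse 1 (2.71%). The widest was Cidea, a lipid droplet fusion gene named after its values were seen, at 8.93, 10.33, 10.32 and 9.85 (2.63-fold, 2.36-fold after quantile normalization and 1.39-fold without mouse 1). G0s2, also named after its values were seen, went the other way and was highest in mouse 1, at 9.89, 9.37, 9.21 and 9.75. Its range was 1.60-fold, 1.87-fold after quantile normalization and 1.46-fold without mouse 1. The other genes of this list over 1.5-fold were lowest in mouse 1. In the deposited values the median SD of the members (0.18) lay between those of these lists. After quantile normalization (0.11) and without mouse 1 (0.054) it was below both. The differences between these lists and the members were not tested.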

How the data were processed

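Liver RNA of 4 aP2-SREBP-1c mice was measured on Mouse Gene 1.0 ST arrays. The authors deposited log2 expression values made by RMA. The submitters' processing notes name the Affymetrix Expression Console. A genome build and the set of arrays normalized together are not given in the sources used here. No column lacked a sample (0). Of 35556 probe sets, 21789 had 1 gene symbol in the platform annotation, and these were used. For genes with several, the probe set with the highest mean was taken. The labels do not say which mice shared a litter or batch, and 1 group allows no test between groups.

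Mean, SD and range were computed on the log2 scale, and 95% confidence intervals by lmFit and eBayes of limma 3.58.1 (R 4.3.3) over the 12265 genes above background. The limma interval and the call of a range over 1.5-fold were tried on simulated data, and the other steps were not. The simulated spread for the range was smaller than the median SD of all genes above background. Alternatives were median-centred arrays, quantile normalization, the mean of all probe sets, background limits at the 90th and 99th percentiles, no filter on low values, a 2-fold range and leaving out each mouse. Members and lists were chosen with earlier results of these data known. Named were all members, genes of the 2 pathway lists with more than a 1.5-fold range or with the 3 largest or 2 smallest SDs, the 5 genes closest to the member with the largest SD, and the first marker of each cell type list. Hnf4a, Plin1, Retn, Car3, Apoa4, Marco, Clec4f, Reln, Des, Col1a1, Col3a1, Cidea and G0s2 were named after their values were seen. Promoter sequences came from RefSeq (GRCm38.p6). Python 3.11.15, numpy 2.4.6, pandas 2.3.3 and matplotlib 3.10.9 were used.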

Additional observations from a re-analysis of the deposited data

Results flagged for a closer look

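The background limit of mouse 1, 5.52 on the log2 scale, lay apart from those of the other 3 mice, which were 5.33 to 5.35. Among the 31 named genes, 0 had 1 mouse apart from the others by this criterion (Dixon's ratio), which 5.75% of all genes above background met and which chance meets in about 1 in 20 groups.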

How the results depend on the processing

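All 63 levels of members under the alternatives moved by less than their SD. Only under quantile normalization could this have come out otherwise. Median-centring keeps the mean of each gene, and each member has 1 probe set. Leaving out 1 of 4 mice cannot move a mean by as much as its SD. The count of members with more than a 1.5-fold range was 1, Mogat1, with no filter on low values, and stayed at 0 with each mouse left out. The count over 0.32 on the log2 scale, 5 in the deposited values, was 1 after quantile normalization and 1 to 5 with 1 mouse left out, the lowest without mouse 1. The median SD of the members was 0.055 to 0.21 with 1 mouse left out, and that of all genes 0.11 to 0.16, both lowest without mouse 1. For the 2 lists of further pathway genes together, 2 genes exceeded 1.5-fold in the main analysis. This count was 4 with median-centred arrays, 0 with quantile normalization, 0 with a 2-fold range, 4 with no filter on low values and 0 to 2 with 1 mouse left out (0 without mouse 1, 1 without mouse 3). Over all genes the count of 1584 became 138 with a 2-fold range, 3749 with no filter and 346 to 1295 with 1 mouse left out, and the count over 0.32 was 3225 to 5596, both lowest without mouse 1. Leaving out a filter or a mouse changes the genes or samples by construction, and other causes were not tested. The low signal limits what can be said of Mogat1, which was above its limit in 3 of 4 mice. No paired analysis was possible because there was only 1 group.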
